A study of Caenorhabditis elegans with 2 samples.

Results

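The genes described here are the collagen and cuticle genes of Caenorhabditis elegans, chosen by symbol alone. They comprise every protein-coding gene called col with a number and a fixed list of 20 genes called dpy, rol, sqt, bli or lon. Those names record a change of body shape or cuticle, and other genes so named, such as dpy-6 and bli-4, were not listed. The rule gave 176 genes among 19973 protein-coding genes. Of the 176 genes, 156 were numbered col genes and 20 came from the fixed list (12 dpy, 2 rol, 3 sqt and 2 bli genes and lon-3). No measured value entered this rule, though it was set with earlier results of these data known. By chromosome, 23 lay on I, 32 on II, 14 on III, 44 on IV, 33 on V and 30 on X. The label held up against the annotated proteins: 174 of the 176 coding sequences translated to at least 10 Gly-X-Y triplets in a row, the repeat that winds collagen chains into a triple helix. The median longest run was 21 triplets and the longest, in col-135, was 155. The exceptions were dpy-18 and col-17. The gene dpy-18 encodes an alpha subunit of prolyl 4-hydroxylase, is no collagen, and had a longest run of 2 triplets. For col-17 the longest run was 1. Each coding sequence was read from its first annotated base without use of the annotated phase, and the frame of col-17 was not checked.

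Chromatin immunoprecipitation with sequencing (ChIP-seq) was used to map where a GFP-tagged NHR-11, a member of the nuclear hormone receptor family, sat on DNA. Both libraries came from whole worms of strain OP305 at the L3 larval stage with the sexes pooled. The strain carries the unc-119(ed3) mutation on chromosome III and the transgene insertion wgIs305, whose driving promoter the labels do not give. The labels describe 2 biological replicates of this single group, so nothing was compared between conditions, and whether the antibody bound the tag or NHR-11 itself is not settled. In whole animals, occupancy in a few cells and weak occupancy in many cannot be told apart, nor can the epidermis be told apart from other tissues.

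The cuticle of the worm is an extracellular coat made mainly of collagens, secreted by the epidermis and replaced at every moult. Its collagens are short secreted proteins whose chains are hydroxylated, trimerised, trimmed by proteases and crosslinked. They belong to a large gene family, and a few members, known from mutants, are needed for the annular furrows, for the struts of the adult cuticle or for normal body shape, as the names dumpy, roller, squat, blister and long record.

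The values came from 4 peak lists on the ce11 genome build (WBcel235): 1030 reproducible regions, and 3 candidate lists of 30000 regions each, from replicate 1, from replicate 2 and from both pooled. A candidate list holds true peaks together with background. Each region carries the authors' peak signal, whose scale was not stated. It ran between 54.9 and 899 in the reproducible list, and over whole candidate lists between 19.4 and 899 in the pooled list, between 11.04 and 449 in replicate 1 and between 9.47 and 453 in replicate 2. Signals are therefore compared within 1 list only, and ranks (1 is strongest) are used between lists. The 1030 reproducible regions were the 1030 strongest of the pooled list. A gene is called bound when a reproducible summit lay in its start window, which reaches from 1000 bases before the annotated 5′ end to 500 bases past it, and is said to have a candidate region when a summit of a candidate list did. Read depth is unknown, because the lists hold no counts, and the control library was not analysed here.

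Of the 176 collagen and cuticle genes, 4 were bound, which is 2.27% (95% Wilson interval 0.887 to 5.70%, counting error only), against 3.30% of all protein-coding genes (659 of 19973). The interval contains the share for all genes, so no difference was detectable with so few bound genes. The 4 genes were col-38, col-72, col-55 and dpy-18. The median signal of their regions was 68.2, against 76.5 over all bound genes, and the median rank was 641.5 against 469. The summits lay upstream of col-38, col-55 and dpy-18 and inside col-72.

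The sequences at the summits of the strongest regions are given first, because they show what kind of DNA was recovered at these genes. They cover 3 of the 4 bound genes, the first 2 genes of the family below the reproducible list, and col-144, which had close ranks in both libraries. Each sequence is the 101 bases centred on the pooled summit, on the strand of the gene, 5′ to 3′, read from the RefSeq WBcel235 genome. Capitals mark any of the 12 short words searched on both strands, which are listed with the promoter counts. The col-38 window is II:8569455-8569555 (minus strand), the col-72 window is II:3523678-3523778 (minus), the dpy-18 window is III:11378584-11378684 (minus), the col-148 window is V:10241292-10241392 (plus), the col-85 window is II:12494716-12494816 (minus) and the col-144 window is V:9160732-9160832 (minus).
col-38: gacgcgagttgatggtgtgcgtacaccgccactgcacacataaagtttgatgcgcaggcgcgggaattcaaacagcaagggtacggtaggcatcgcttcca
col-72: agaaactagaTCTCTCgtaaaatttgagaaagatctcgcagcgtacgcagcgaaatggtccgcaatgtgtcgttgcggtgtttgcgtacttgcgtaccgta
dpy-18: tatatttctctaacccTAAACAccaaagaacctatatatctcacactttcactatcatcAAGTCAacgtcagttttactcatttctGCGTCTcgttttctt
col-148: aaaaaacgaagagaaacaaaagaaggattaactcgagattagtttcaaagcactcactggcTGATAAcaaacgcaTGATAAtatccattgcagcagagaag
col-85: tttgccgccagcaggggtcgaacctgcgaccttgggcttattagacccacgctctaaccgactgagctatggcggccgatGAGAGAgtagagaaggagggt
col-144: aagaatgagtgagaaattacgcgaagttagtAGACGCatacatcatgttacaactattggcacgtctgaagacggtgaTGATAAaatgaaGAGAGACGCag

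The col-38 sequence held none of the searched words and 55.4% G+C, and every 31-base word within it occurred once in the genome. The col-72 sequence held 47.5% G+C and a GAGAGA on the strand opposite the gene. Over the whole listed region of col-72, 60.4% of the 31-base words were unique, so reads there could in part belong elsewhere. The dpy-18 sequence was 34.7% G+C and held AAGTCA on the strand of the gene and AGACGC and TGTTTA on the other. In the col-144 sequence the GAGAGA and the AGACGC nearest the 3′ end overlap each other. The col-148 sequence carried TGATAA at 2 places.

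The strongest region of any collagen or cuticle gene belonged to col-38 (WBGene00000615), a numbered cuticle collagen with 37 Gly-X-Y triplets in a row. Its region at II:8569327-8569682 had a pooled signal of 95.9 at rank 281. The region had a signal of 54.1 at rank 226 in replicate 1 and of 43.5 at rank 395 in replicate 2, so it stood among the 1030 strongest in each library. It was the only one of the 176 genes with its summit in the window in both, which is 0.568%, against 2.14% of all protein-coding genes. The summit lay 417 bases upstream of col-38 and 422 bases upstream of rpl-5, the divergent neighbour, which encodes a protein of the large ribosomal subunit. In replicate 1 the summit was 438 bases from col-38 and 401 bases from rpl-5, so the nearer gene changed with the library. The pooled summit also fell within the noncoding RNA genes F54C9.16 and F54C9.17, and a region between a pair of coding genes cannot be given to one of them by position.

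The region of col-72 (WBGene00000648), another numbered cuticle collagen, lay 469 bases into the gene, in an intron, at II:3523550-3523905. Its pooled signal was 69.9 at rank 600. It ranked 1099 in replicate 1, with a signal of 28.6, and 504 in replicate 2, with a signal of 38.9, and both summits lay 468 bases downstream of the 5′ end. The position was nearly identical in the libraries, and no other coding gene had its 5′ end in reach of the summit.

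For col-55 (WBGene00000632), whose annotated protein has 154 residues (the median of the 176 is 304.5), the pooled region at I:6198499-6198854 had a signal of 66.5 at rank 683. Its summit lay 996 bases upstream, just inside the edge of the window. In replicate 2 the region ranked 609 with a signal of 36.05. In replicate 1 the overlapping region ranked 910 with a signal of 30.4, but its summit lay 1006 bases upstream and so just outside the window. Both libraries held this region strongly, and its assignment to col-55 rests on the width of the window.

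The region of dpy-18 (WBGene00001077) was the weakest of the 4. The enzyme hydroxylates prolines of procollagen chains, a step that stabilises the triple helix. The region, at III:11378456-11378811, had a pooled signal of 54.92 at rank 1024, close to the end of the list. It ranked 738 in replicate 2, with a signal of 33.1, and 3873 in replicate 1, with a signal of 20.5. The summit lay in intergenic sequence 654 bases upstream in the pooled list and in replicate 1, and 697 bases upstream in replicate 2. This call leaned on replicate 2.

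**Figure D1:**
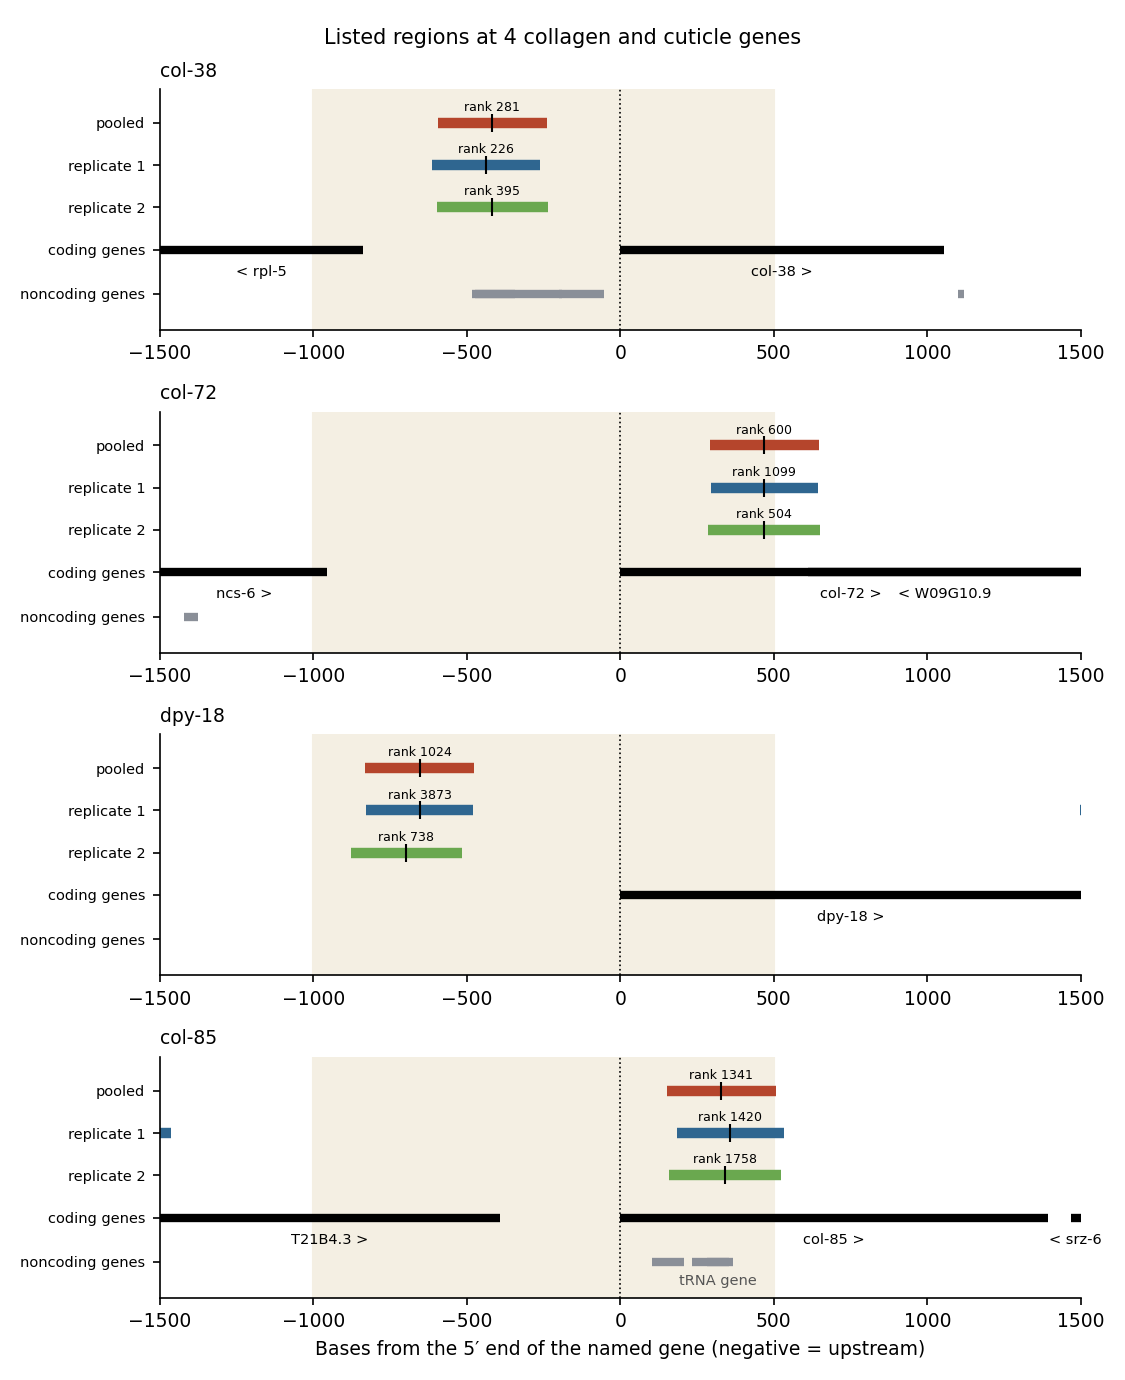
Regions of the pooled list and of each replicate at col-38, col-72, dpy-18 and col-85, drawn to scale in bases from the 5′ end of the named gene, with the gene reading to the right. Coloured bars are regions with their rank above and a tick at the summit, black bars are protein-coding genes (arrowheads give direction), grey bars are noncoding genes, the dotted line is the 5′ end and the shaded band is the gene start window. The regions of the lists overlap at each of the 4 genes, between rpl-5 and col-38, within col-72, upstream of dpy-18 and over a tRNA gene within col-85.

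Immediately below the end of the reproducible list, whose last region had a signal of 54.86, stood col-148 (WBGene00000721) at rank 1032 with a signal of 54.83. It ranked 1064 in replicate 1, with a signal of 28.8, and 1353 in replicate 2, with a signal of 25.4. Its ranks were closer between the libraries than those of dpy-18, which fell on the other side of the threshold. The summit lay 411 bases upstream of col-148 and 154 bases upstream of C12D8.21 on the opposite strand, so C12D8.21 was the nearer gene. Next came col-85 (WBGene00000660) at rank 1341 with a signal of 48.6, at 1420 in replicate 1 and 1758 in replicate 2. Its summit fell 329 bases inside col-85, within a tRNA gene of 74 bases, and the sequence there was 58.4% G+C. Over the whole listed region of col-85, 83.1% of the 31-base words were unique in the genome. The region of col-2 followed at rank 2138 with a signal of 41.6. It ranked 1157 in replicate 2 and 17739 in replicate 1, and its summit was nearer to ndc-80, a kinetochore gene (318 bases), than to col-2 (368 bases).

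Further down, col-144 ranked 2836 in the pooled list with a signal of 38.5, 4298 in replicate 1 and 4242 in replicate 2. Its summits lay 140, 160 and 147 bases upstream of the 5′ end, and no other coding gene had its 5′ end within reach. Among the other genes of the 20 strongest, the replicate ranks were close for some and far apart for others. The region of col-33 ranked 4531 in the pooled list, 6752 in replicate 1 and 9288 in replicate 2, and that of col-165 ranked 8749, 8312 and 9765 in the same order. The region of col-75 ranked 4382 in the pooled list, 12399 in replicate 1 and 7863 in replicate 2. These 3 regions had no other coding gene's 5′ end within reach. The region of col-161 ranked 1678 in replicate 2 and 9889 in replicate 1, and its pooled summit was 16 bases upstream of srh-18, a gene of a chemoreceptor family. The region of col-63 ranked 4410 in replicate 1 and 11012 in replicate 2, and its summit fell in the 3′ UTR of ceh-8, a homeobox gene. For col-10 the ranks were 2918 in replicate 1 and 28515 in replicate 2, and for col-176 they were 4581 and 27118 in the same order. For col-105 they were 6084 in replicate 1 and 29607 in replicate 2. For col-154 they ran the other way, with 18985 in replicate 1 and 3232 in replicate 2, and col-181 had a region at rank 7146 in replicate 2 and no summit in its window in replicate 1, with W03G11.3 sharing its pooled region.

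**Figure D2:**
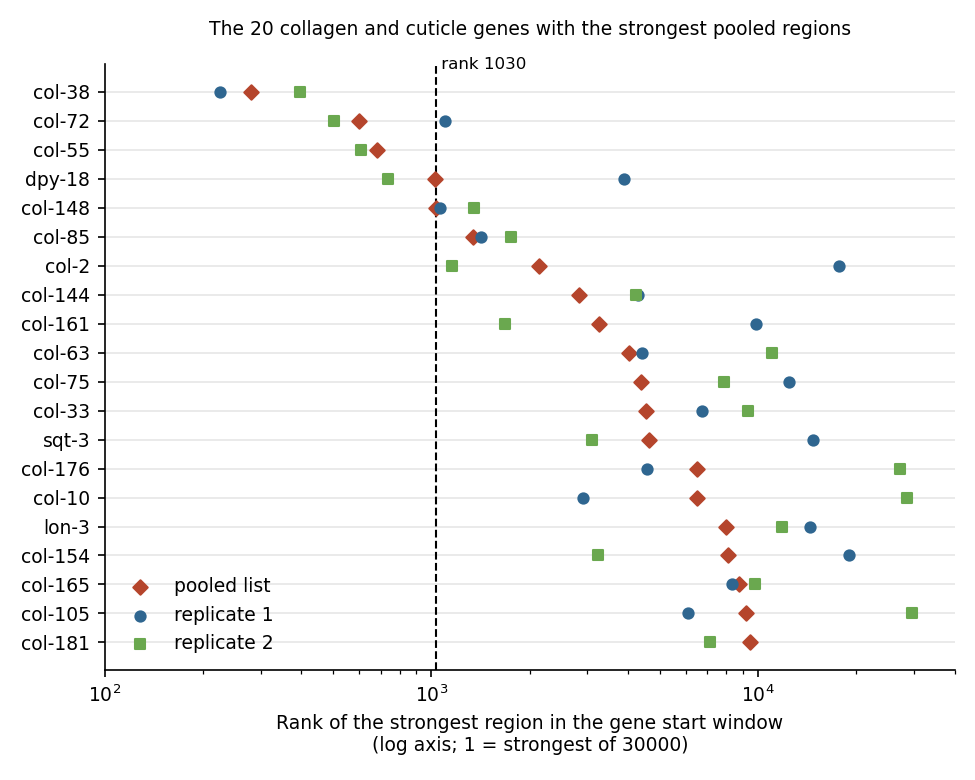
Rank of the strongest region in the start window of the 20 collagen and cuticle genes with the strongest pooled regions, on a log axis (1 is strongest of 30000), for the pooled list (diamonds), replicate 1 (circles) and replicate 2 (squares). The dashed line is rank 1030, the end of the reproducible list, and col-38 is the one gene with all 3 ranks left of it. Replicate ranks lie close together for col-38, col-148, col-144 and col-165 and far apart for col-2, col-10 and col-176, and the missing circles of col-55 and col-181 are windows with no replicate 1 summit.

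The sets of collagens known from mutants were too small to tell an absence of bound genes from the 3.30% bound over all genes. None of the 6 furrow collagens (dpy-2, dpy-3, dpy-7, dpy-8, dpy-9 and dpy-10), which shape the circumferential furrows, was bound. Of these 6, 2 had a pooled candidate region (33.3%, against 43.2% of all genes). The region of dpy-8 ranked 9825 in the pooled list, 26962 in replicate 1 and 4329 in replicate 2. Its replicate summits lay 1000 bases upstream and 4 bases downstream of the 5′ end, so the libraries did not hold the same region. The region of dpy-10 ranked 25760, was absent from replicate 1, and sat closer to T14B4.19 (63 bases) than to dpy-10 (767 bases). A replicate 1 region for dpy-7 ranked 25139 and had no counterpart in the other lists.

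None of the 11 collagens grouped here under body shape was bound either, against 3.30% of all genes. A pooled candidate region was present for 6 (54.5%, against 43.2% of all genes), with a median rank of 20675.5. The strongest was that of sqt-3, an essential cuticle collagen, with a signal of 33.8 at rank 4645 and a summit 35 bases downstream of the 5′ end, in the 5′ UTR. It ranked 3095 in replicate 2 and 14746 in replicate 1, where the summit lay 137 bases downstream. The region of lon-3, whose loss gives long worms, ranked 7997 in the pooled list, 14396 in replicate 1 and 11826 in replicate 2, with a summit 744 bases upstream in an intron of ogdh-2. The remaining 4, dpy-17, rol-8, sqt-1 and dpy-13, ranked between 16978 and 29949. The region of dpy-13, the weakest, was shared with zipt-2.2, a zinc transporter gene. Of the strut collagens of the adult cuticle, bli-2 had a region in replicate 1, at rank 29619, and bli-1 had none in any list. In all, 9 of the 20 genes with names other than col had no region in any list (bli-1, dpy-2, dpy-3, dpy-4, dpy-5, dpy-9, dpy-14, rol-6 and sqt-2), and the same held for 64 of the 156 numbered col genes, against 39.7% of all protein-coding genes. Among the numbered genes 3 were bound (1.92%, against 3.30% of all genes) and 59 had a pooled candidate region (37.8%, against 43.2%).

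The candidate lists mix peaks with background and reach much further down. In the pooled list 68 of the 176 genes had one, or 38.6% (Wilson interval 31.8 to 46.0%), against 43.2% of all protein-coding genes. The 68 genes drew on 64 distinct regions, since col-39 and col-79, col-3 and col-117, col-183 and col-184, and col-50 and col-51 shared 1 region each. In replicate 1 the count was 62 (35.2%), against 42.0% of all genes, and in replicate 2 it was 68 (38.6%), against 42.6%. The intervals of the pooled and replicate 2 shares hold the value for all genes, and so does that of replicate 1 (28.6 to 42.5%). These regions ranked low in the pooled list. Their median pooled signal was 23.8, against 26.2 over all genes with a region, and the median pooled rank was 17103.5 against 12482. The median rank was 14571 against 12512 in replicate 1, and 11697 against 12467 in replicate 2, so the lower ranking seen in the pooled list and in replicate 1 was not seen in replicate 2.

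The count of genes reached was also taken at several depths of the lists. Among the 2060 strongest pooled regions 6 of the genes were reached (3.41%), against 5.31% of all genes. Among the 5000 strongest pooled regions, 13 were reached (7.39%), against 10.5%. Among the 10000 strongest, 23 were reached (13.1%), against 18.3%, and among the 20000 strongest 40 were reached (22.7%), against 31.5%. The Wilson interval at 20000 pooled regions, 17.2 to 29.5%, did not hold the share of all genes. At every other depth of the 3 lists given here it did. In replicate 1 the 10000 strongest regions reached 22 of the genes (12.5%), against 17.6% of all genes. In replicate 2 they reached 31 (17.6%), against 17.8%. The gap to all genes was thus present in the pooled list and replicate 1 and was nearly nil at this depth in replicate 2. At 5000 regions the counts were 11 in replicate 1 (6.25%), against 9.80% of all genes, and 14 in replicate 2 (7.95%), against 10.4%. At 2060 regions they were 4 in replicate 1, against 5.11%, and 8 in replicate 2, against 5.33%. Among the 1030 strongest regions, replicate 1 reached 1 of the genes, against 3.07% of all genes, and replicate 2 reached 4, against 3.11%. At 20000 regions replicate 1 reached 44, against 30.6%, and replicate 2 reached 49, against 31.1%.

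**Figure D3:**
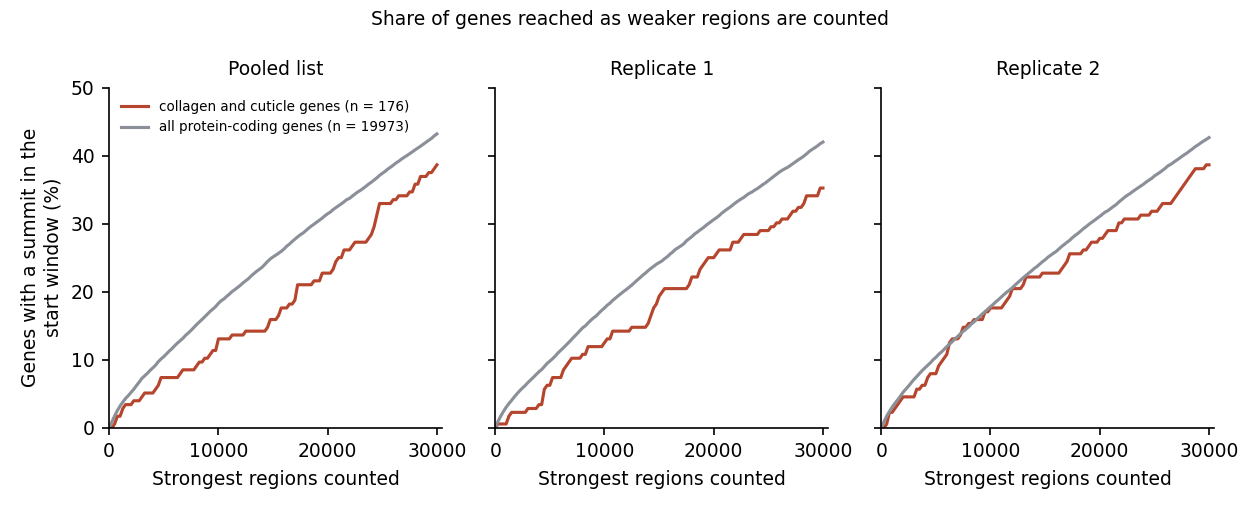
Percent of the 176 collagen and cuticle genes (red) and of all 19973 protein-coding genes (grey) with a summit in the start window, as more regions are counted from the strongest down, for the pooled list, replicate 1 and replicate 2. The red line ends at 38.6, 35.2 and 38.6% and the grey line at 43.2, 42.0 and 42.6%. In replicate 2 the red line is above the grey one at 7500 regions (14.8 against 14.2%) and just below it at 10000 (17.6 against 17.8%). It lies further below at 5000 (7.95 against 10.4%) and at 20000 (27.8 against 31.1%).

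The libraries often held regions at different members of the family. A region stood in both replicate lists for 30 of the 176 genes (17.05%), against 26.0% of all genes, and in all 3 lists for 27 (15.3%), against 24.3%. A region stood in replicate 1 but not replicate 2 for 32 (18.2%), against 16.0%, and in replicate 2 but not replicate 1 for 38 (21.6%), against 16.7%. At least 1 list held a region for 103 genes (58.5%), against 60.3%, and no list held one for 73 (41.5%), against 39.7%. The share with a region in some list was thus close to that of all genes, while the share with a region in both libraries was lower, a gap that was not tested. Over the 30 genes in both lists, the ranks had a Spearman correlation of 0.33, against 0.47 over the 5186 such genes in the genome, as a description across genes that share the same libraries. Among the 5000 strongest regions of both replicates there were 6 of the genes (3.41%), against 5.08%: col-38, col-72, col-85, col-144, col-148 and dpy-18. Among the 10000 strongest of both there were 10 (5.68%), against 8.55%. By overlap of at least 1 base, the pooled regions of 24 of the 68 genes were met in both replicate lists, those of 41 in 1 list and those of 3 in neither.

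The median summit position at these genes lay further upstream than over all genes with a region, a gap that was not tested. Of the 68 strongest pooled regions, 54 had their summit upstream of the 5′ end (79.4%), against 72.5% over all genes with a region. The median position was 421 bases upstream, against 239 bases upstream for all genes. The bin from 200 to 100 bases upstream held 5.88% of the summits at collagen and cuticle genes, against 10.4% over all genes with a region. By annotation, 39 of the 68 summits lay in intergenic sequence (57.4%, against 53.9%), 15 in coding sequence (22.1%, against 18.2%) and 9 in introns (13.2%, against 16.1%). Another gene shared the region in 21 cases (30.9%, against 25.5%). The genes themselves were compact, with a median length of 1224.5 bases, against 2027 bases for all protein-coding genes. The median space to the next coding gene upstream was 827.5 bases, against 936 bases, and 58 had a divergent upstream neighbour (33.0%, against 42.2%). Worm genes are often trans-spliced, so an annotated 5′ end can lie downstream of the true start of transcription. Whether this bears on the positions given here was not tested.

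**Figure D4:**
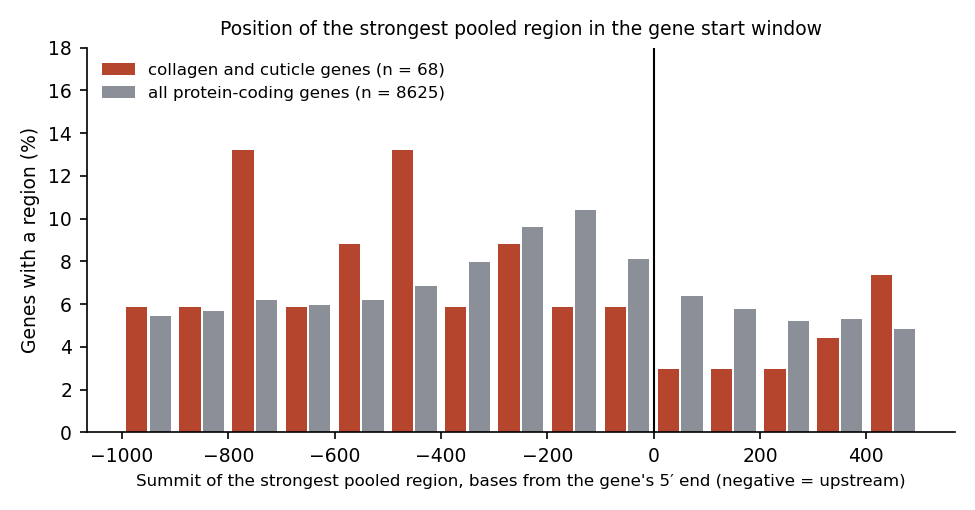
Position of the summit of the strongest pooled region relative to the annotated 5′ end, in bins of 100 bases (negative is upstream), as a percent of the 68 collagen and cuticle genes with a region (left bar of each pair) and of the 8625 protein-coding genes with one (right bar). The collagen and cuticle genes spread widely upstream, with 9 genes in each of the bins from 800 to 700 and from 500 to 400 bases upstream, while the bars for all genes are highest between 200 and 100 bases upstream (10.4%).

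The bound genes were on chromosomes I (1 of 23, 4.35%, against 4.38% of all genes there), II (2 of 32, 6.25%, against 3.54%) and III (1 of 14, 7.14%, against 5.30%). On chromosomes IV, V and X none of the 44, 33 and 30 genes was bound, against 2.65%, 2.06% and 2.97% of all genes there. Pooled candidate regions reached 8 of the genes on I (34.8%, against 42.3% of all genes there), 13 on II (40.6%, against 43.8%) and 5 on III (35.7%, against 43.4%). They reached 19 on IV (43.2%, against 41.8%), 10 on V (30.3%, against 42.7%) and 13 on X (43.3%, against 45.8%). The strongest region on IV was that of col-2.

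The promoters themselves, from 250 bases upstream to 50 bases downstream of the 5′ end, were richer in G+C and in one core promoter word. Their median G+C content was 38.2%, against 34.3% over all protein-coding genes. The words searched on both strands were TATAAA (the core of the usual box upstream of a start), the nuclear receptor half-site AGGTCA with its variants AAGTCA (one base changed) and AGTTCA (likewise one base changed), the short repeat GAGAGA and the word AGACGC. Also searched were the word GCGCGC (which reads alike on both strands), the E-box CACGTG with the longer word TGACTCA (known from basic leucine zipper factors), the word TGATAA (known from GATA factors), the word TGTTTA (known from forkhead factors) and finally CTGTAG. The word TATAAA stood in 116 of the 176 promoters (65.9%), against 37.9% of all promoters of that length. AGGTCA stood in 26 (14.8%), against 8.27%. The variant AAGTCA stood in 13.6%, against 13.3%, and the variant AGTTCA in 17.6%, against 20.4%. GAGAGA stood in 28.4%, against 21.8%, and AGACGC in 11.9%, against 7.87%, whereas CACGTG stood in 3 promoters (1.70%), against 5.82%, and TGACTCA in 2 (1.14%), against 3.62%. These are counts of letters and not of sites. Among the 68 promoters whose gene had a pooled candidate region, TATAAA stood in 45, beside 116 of all 176. AGGTCA stood in 8 of the 68, beside 26 of the 176.

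At the summits, some words more common in the reproducible list than in the whole pooled list were rarer at the collagen and cuticle genes. Most regions of these genes ranked below the reproducible list. For some words, given next, their shares were closer to those of all pooled regions, and for others they were not. Within 50 bases of the summit, GAGAGA stood at 7.81% of the 64 regions, against 28.6% of the reproducible regions and 7.80% of all pooled regions. AGACGC stood at 4.69%, against 13.4% and 2.79% in the same order, and GCGCGC at none of the 64, against 5.15% and 0.80%. TGATAA ran the other way, at 14.1%, against 5.53% and 10.4%. Other words had shares nearer to those of the reproducible regions. The half-site AGGTCA stood at 4.69%, against 2.62% and 2.48%, and its variant AGTTCA at 4.69%, against 3.59% and 6.87%. The longer word TGACTCA stood at 3.125%, against 1.46% and 1.09%, and the word CTGTAG at none, against 1.65% and 3.13%. Each share at the 64 regions rests on 9 regions or fewer, and no difference was tested. Median G+C around the summit was 36.6% at the 64 regions, against 45.5% at the reproducible regions and 34.7% at all pooled regions with a summit in a gene start window. Of the bound genes, col-38 and col-72 were above that of the reproducible regions, and col-55, at 38.6%, and dpy-18 were below it.

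The count of bound genes moved with the rule for calling one. With 2000 bases to each side of the 5′ end 6 were bound, against 5.22% of all genes, since col-94 (III:10989439-10989794, signal 63.2, rank 757, 1744 bases upstream) and col-119 (IV:8977984-8978339, signal 59.6, rank 857, 1633 bases downstream) came within reach. With 500 bases upstream and none downstream it was col-38 alone, against 2.28%, and with the 515 strongest reproducible regions again col-38 alone, against 1.81%. Giving each region to its nearest gene left 4, against 2.52%, and counting from any annotated transcript start also left 4, against 3.57%. Candidate regions reached 125 of the genes with 2000 bases to each side, against 71.8% of all genes, and 28 with 500 bases upstream alone, against 20.4%.

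Some start windows held repeated sequence, so reads there may map to more than one place. Whether the other copies lie at genes of the family was not examined. In the start windows the median share of 31-base words that occur once in the genome was 99.4%, against 100% for all genes, and 37 windows (21.0%) had under 90% unique words, against 14.8% of all genes. The lowest were col-3 and col-117, with 39.3% each, which shared 1 region at rank 24380. Among the bound genes, the window of col-72 had 89.0% unique words and that of dpy-18 had 89.7%. How the aligner treated reads with several matches is not given in the sources used here, and its part in the low signals was not tested.

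The genes that work beside the collagens were counted against the same shares of all protein-coding genes, 3.30% bound and 43.2% with a pooled candidate region. Of 12 genes for collagen processing and crosslinking, 1 was bound (8.33%), dpy-18 itself, and 7 had a pooled candidate region (58.3%). The next strongest was that of bli-4, a proprotein convertase that trims procollagens, with a signal of 33.4 at rank 4918, followed by tsp-15, a tetraspanin needed by the dual oxidase, with 26.3 at rank 12307. Of 41 further genes of the cuticle and apical matrix, none was bound and 18 had a candidate region (43.9%), led by the cuticlin-like gene cutl-2 (44.8, rank 1699) and the lipocalin gene lpr-3 (39.6, rank 2582). Of 12 genes for moulting none was bound and 2 had a pooled candidate region (16.7%), those of ptr-4 (33.9, rank 4605) and nas-36 (29.1, rank 8387). Of 5 genes listed for basement membrane and other collagens (let-2, emb-9, bli-6, cle-1 and mec-5) none was bound. A pooled candidate region was present for 2 of these 5 genes (40%), and the type IV collagen gene let-2 had the strongest (37.8, rank 3045). Of 11 regulators of epidermal and cuticle genes, 1 was bound (9.09%) and 5 had a candidate region (45.5%). The bound gene was myrf-1, a membrane-tethered transcription factor needed for larval development, with a pooled signal of 132 at rank 135. It ranked 107 in replicate 1 and 158 in replicate 2, with a pooled summit 272 bases upstream, higher in each list than the region of any collagen or cuticle gene.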

How the data were processed

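Narrow peak lists on ce11 (WBcel235) for 2 replicates of 1 group were used. The peak signal of each region was computed by the authors' caller from an alignment of the sample and one of a control before the lists were deposited, per the file headers and descriptions, and its scale is not stated. Per the file headers and labels, the candidate lists hold peaks and background as input for an irreproducible discovery rate filter, and the reproducible list is its result. Caller, aligner and treatment of repeated matches are not given in the sources used here. Versions of the lists on ce10 were not used. The lists used here hold no counts, so depth and its precision are unknown.

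From the lists, the summit of each region was assigned to protein-coding genes by the window from 1000 bases upstream to 500 bases downstream of the gene's 5′ end in Ensembl release 115. A gene's value is that of its strongest region. Sequences were read from the RefSeq genome of the same build, and chromosome lengths were checked against the lists. Wilson intervals (95%) are given for shares of genes; they treat genes as independent and leave out every error but counting. No test was run between conditions, because there is 1 group, and none over the gene lists. Python 3.11.15, pandas 2.3.3, numpy 2.4.6, scipy 1.17.1 and matplotlib 3.10.9 were used, and the assignment was tested on simulated data.

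The members and the lists of related genes were chosen with earlier results of these data known. Genes were named by rule: every bound member, the 20 members with the strongest pooled regions, every member called dpy, rol, sqt, bli or lon, the 3 members on either side of the end of the reproducible list, and neighbours sharing their windows. The genes col-135, col-17, the members that share a region, and the related genes named with the lists were added after their values were seen. Alternatives were other windows, the nearest gene alone, any annotated transcript start, other numbers of regions, and each replicate alone.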

Additional observations from a re-analysis of the deposited data

How the results depend on the processing

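The count of 4 bound collagen and cuticle genes moved with the window, with the number of regions and with replicate 2. With a window of 500 bases upstream and none downstream it was 1 (2.28% of all genes), with the 515 strongest reproducible regions it was 1 (1.81%), and with regions among the strongest of both replicates it was 2, col-38 and col-55 (2.14%). Leaving out 1 replicate gave between 1 and 4 genes: 4 of the genes were reached by replicate 2 alone and 1, col-38, by replicate 1 alone. The 4 bound genes were 4 under the nearest gene alone and under any transcript start, and 6 both with 2000 bases to each side (which added col-94 at rank 757 and col-119 at rank 857) and with the 2060 strongest pooled regions. The 68 genes with a candidate region became 125 (71.0%, against 71.8% of all genes) with 2000 bases to each side and 28 (15.9%, against 20.4%) with 500 bases upstream only, and leaving out 1 replicate gave between 62 and 68. The cause of these differences was not tested beyond the construction of each window. The median rank of the strongest region per gene was 17103.5 over the 68 genes, against 12482 over all genes with a region. Under the alternatives it lay between 11697 and 15325, against 10965 to 12512 over all genes. Each alternative covers another set of genes, and with a replicate left out the ranks are those of the other replicate's list. The lowest, 11697, is that of replicate 2, against 12467 over all genes. No paired analysis was possible because there is 1 group. Weak regions lie where peaks and background are mixed, unknown depth sets no floor for them, and with 1 tagged strain, 1 stage and no control list used here, an empty window is a lack of a listed region and not of binding.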
